A study of Homo sapiens with 6 samples.

Results

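The genes described here are 6 metallothioneins, MT1E, MT1F, MT1G, MT1M, MT1X and MT2A, and MTF1, the transcription factor that switches them on. They were chosen by name and are 7 of the 78932 genes in the count table. RNA-seq was done on T24, a cell line from a human urothelial (bladder) carcinoma. 3 libraries came from cells given a non-targeting control siRNA (siNC) and 3 from cells given siRNA against TRIM28 (siTRIM28). TRIM28 is a corepressor that is recruited to DNA by zinc finger proteins of the KRAB class. The labels number the replicates but do not say whether each was a separate culture. Which of the study's TRIM28 siRNAs was used, and how long after transfection the RNA was taken, are not given in the sources used here. All libraries share the transfection reagent, the medium with serum, and 1 recorded batch, and what that batch covers is not stated.

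Metallothioneins are small proteins, rich in cysteine, that bind zinc and copper and also trap cadmium. Free zinc is sensed by MTF1, which then binds short DNA stretches called metal response elements (MREs) upstream of metallothionein genes. Glucocorticoids also raise several of these genes, and MT2A is the member that most cell types express. Zinc enters the cytosol through SLC39A transporters and leaves it through SLC30A transporters, so these families are described after the members.

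In the control cells 1 gene made up nearly all of the metallothionein RNA. MT2A was abundant, MT1X and MTF1 were low, and MT1E, MT1F, MT1G and MT1M were at or next to 0 in both groups. In siTRIM28, MT1X and MTF1 were higher by 0.86 and 0.32 on the log2 scale, a direction in which 21.3% of all genes tested were called. Both calls were lost without siNC replicate 1, and MT1X shares exons with a second gene. MT2A did not pass the test, and the sign of its difference turned on 1 siTRIM28 library.

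TRIM28 itself averaged 104 ± 4.09 in the siNC libraries and 8.87 ± 0.658 in the siTRIM28 libraries (± SD over 3 libraries), in counts scaled to library size by the TMM method (CPM). Libraries held 11712623 to 14018052 counts. siNC replicate 3 and siTRIM28 replicate 1 stood apart from the other libraries of their groups. The chi-square between the counts of siNC replicates 1 and 2 was 1.08 per degree of freedom, against 4.17 and 4.22 for the pairs with replicate 3. Between siTRIM28 replicates 2 and 3 it was 1.22, against 6.25 and 5.65 for the pairs with replicate 1. Counting error alone gives about 1, so the 2 close pairs differed by little more than that. Whether a close pair is 1 culture measured again is not stated. If so, the SDs, standard errors and p-values over 3 libraries may be too small. Values of the members without the 2 libraries that stood apart stand beside the results. Those fits keep only the close pairs and may understate the spread. Of the 9 urothelial and epithelial markers checked, 4 were tested. KRT8 and KRT18, keratins of simple epithelia, had 104 ± 0.619 and 86.1 ± 3.91 CPM in siNC, whereas the uroplakin UPK1B was at 0 in every library and KRT19, GATA3, UPK2 and UPK3A did not reach the count minimum. KRT7 and KRT8 were called as higher in siTRIM28, by 0.56 (adjusted p = 0.0126) and 0.14 (adjusted p = 0.0354, both by edgeR). The summed level of the 9 markers was 196 to 205 CPM in siNC and 216 to 221 CPM in siTRIM28. Of 8 markers of other cell types, CD3E and CDH5 were at 0 in every library and only COL1A1 and MYH11 were tested. COL1A1, a collagen of fibroblasts, was higher in siTRIM28, at 0.932 ± 0.265 CPM in siNC and 3.28 ± 0.635 CPM in siTRIM28 (1.78, adjusted p = 0.000221 by edgeR), and MYH11 was not called. The summed level of the 8 markers was 4.19 to 5.17 CPM in siNC and 7.50 to 9.04 CPM in siTRIM28, and their part in the results was not tested.

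The 250 bases before the gene start carry the MREs, so these are shown for the 2 metallothioneins with RNA and for 1 neighbour, MT1H, whose RNA was almost absent. RefSeq promoter sequences of the GRCh38.p14 build covered 3 of the 7 members, MT2A, MT1X and MTF1. The MRE core was searched as TGCACNC or TGCGCNC on both strands, and capitals mark each match, with those on the other strand reading GNGTGCA or GNGCGCA. The TATA box was searched as TATAAA on the gene's strand and is left in lower case. The sequences read 5′ to 3′ on the plus strand and come from chr16:56608334-56608583 (MT2A), chr16:56682220-56682469 (MT1X) and chr16:56669564-56669813 (MT1H).

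MT2A: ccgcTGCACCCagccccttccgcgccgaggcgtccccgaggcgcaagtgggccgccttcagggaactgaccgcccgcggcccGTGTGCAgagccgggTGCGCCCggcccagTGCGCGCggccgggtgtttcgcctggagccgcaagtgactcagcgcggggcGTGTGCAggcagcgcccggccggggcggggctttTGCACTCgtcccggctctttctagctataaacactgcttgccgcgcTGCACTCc
MT1X: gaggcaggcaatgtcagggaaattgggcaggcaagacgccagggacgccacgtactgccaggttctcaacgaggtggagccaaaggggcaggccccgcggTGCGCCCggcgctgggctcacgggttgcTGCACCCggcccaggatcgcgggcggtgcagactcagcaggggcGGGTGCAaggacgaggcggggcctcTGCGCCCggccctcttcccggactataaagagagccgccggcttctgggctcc
MT1H: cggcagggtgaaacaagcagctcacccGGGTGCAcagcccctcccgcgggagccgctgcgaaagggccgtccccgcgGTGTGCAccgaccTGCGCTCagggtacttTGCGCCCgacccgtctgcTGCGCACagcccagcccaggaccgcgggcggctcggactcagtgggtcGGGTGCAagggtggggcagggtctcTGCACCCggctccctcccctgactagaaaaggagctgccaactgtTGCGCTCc

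MT2A had 7 MRE cores in this window. They began at -246, -168, -153, -139, -88, -54 and -8 bases from the gene start, and the TATA box began at -29. MT1X had 4 cores, at -150, -122, -78 and -53, with the TATA box at -30. MT1H had 8 cores and no TATAAA. MT1B and MT4, both at 0 counts in all libraries, had 3 cores each, and the window of MTF1 held none, which says only that these letters are not in it. Of 35116 promoters of the same length, 24.8% had at least 1 core, 0.370% at least 4 and 0.0313% at least 7, and 6.80% had the TATA letters. The number of cores did not follow the RNA level across these genes. MT1H had 1 core more than MT2A but no more than 2 counts in any library.

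**Figure D1:**
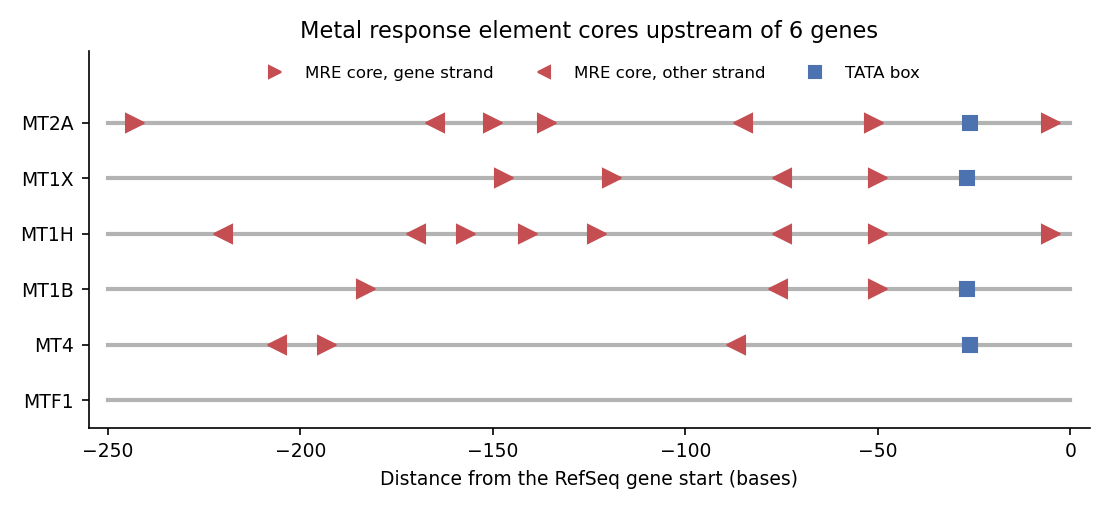
Position of each MRE core (triangles, pointing along the strand of the match) and TATA box (squares) in the 250 bases before the RefSeq start of 6 genes, in bases from the start. The 5 metallothionein genes have 3 to 8 cores each, MT2A 7 and MT1X 4, and MTF1 has none.

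MTF1 (ENSG00000188786) lies on chromosome 1 at 37809574 to 37859592 of GRCh38, on the minus strand, and its main transcript in GENCODE v29 has 11 exons. It had 15.5, 17.0 and 19.6 CPM in siNC replicates 1, 2 and 3, and 20.1, 21.8 and 23.1 CPM in siTRIM28 replicates 1, 2 and 3. Every siTRIM28 library was above every siNC library, but siNC replicate 3 and siTRIM28 replicate 1 lay close together. The means were 17.4 ± 2.08 and 21.7 ± 1.46 CPM (SD, 3 libraries each), a log2 fold change of 0.32 with a standard error of 0.091 and a 95% interval of 0.12 to 0.52 (adjusted p = 0.0149 by the quasi-likelihood test of edgeR, with Benjamini-Hochberg adjustment over 18474 genes). Over all genes tested, 41.8% passed this threshold, 20.5% as lower in siTRIM28, and in 52.0% the groups did not overlap. So a rise of this kind was common in these libraries. The exact two-sided permutation test gave p = 0.1, the smallest that 3 libraries against 3 allow. The rise was 0.23 without siNC replicate 1 (adjusted p = 0.0874), 0.30 without siNC replicate 2 (adjusted p = 0.0548) and 0.26 without siTRIM28 replicate 3 (adjusted p = 0.0609, all by edgeR), so the call rested on each of these libraries. With the close pairs of libraries summed into 1 sample each it was 0.25 and was not called (adjusted p = 0.123 by edgeR). Without both libraries that stood apart it was 0.46 (adjusted p = 0.000422 by edgeR), in a fit of the close pairs alone. Bulk RNA cannot tell a change in every cell from a change in the number of cells that express the gene.

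MT2A (ENSG00000125148) lies on chromosome 16 at 56608584 to 56609497, on the plus strand, with 3 exons. It is the metallothionein that most tissues make at rest, as a store for zinc. It had 9028, 9471 and 9143 counts in siNC replicates 1, 2 and 3, and 4556, 8933 and 8333 counts in siTRIM28 replicates 1, 2 and 3. In CPM this was 650, 684 and 717 in siNC and 325, 754 and 704 in siTRIM28. The groups overlapped, since siTRIM28 replicate 1 was the lowest of the 6 libraries and siTRIM28 replicate 2 the highest.

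Per gene length MT2A stood among the most abundant transcripts of the cell. Its rank by CPM per kilobase of gene length (RPKM) among 18474 genes was 58, 55 and 53 in siNC, and 44 and 48 in siTRIM28 replicates 2 and 3, but 127 in siTRIM28 replicate 1. The means were 684 ± 33.4 CPM in siNC and 595 ± 234 CPM in siTRIM28 (SD, 3 libraries each). The log2 fold change was -0.20 with a standard error of 0.221 and a 95% interval of -0.69 to 0.28 (adjusted p = 0.499 by edgeR, exact permutation p = 0.9). Without siTRIM28 replicate 1 it was 0.09 (adjusted p = 0.0381), and without both libraries that stood apart it was 0.13 (adjusted p = 0.00303, both by edgeR). With no filter on low counts it was -0.22 with an adjusted p of 4.81e-07 by edgeR.

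The low MT2A value was unusual even for a library that stood apart. On the log2 scale MT2A in siTRIM28 replicate 1 was below the mean of replicates 2 and 3 by a gap of -1.16. Among 12828 genes with a mean of at least 50 counts only 1, the mitochondrial tRNA gene MT-TN at -1.18, had a lower gap, and the SD of these gaps was 0.227. The next lowest were ZBTB45, a zinc finger gene, and the pseudogenes RPS9P2, HSP90AB4P and RPL22P16. The mitochondrial tRNA genes MT-TA and MT-TC followed at ranks 7 and 10 from the lowest, with gaps of -1.03 and -0.91. All of these were named after their values were seen. MT1X was the lowest of its group in this library too, with a gap of -0.54, while the gap of MTF1 was -0.15. Gaps by gene length and mitochondrial shares were looked at after the values were seen. In siTRIM28 replicate 1 the median gap was 0.163 over 883 genes under 1000 bases and -0.0107 over 11945 longer genes. The 10th percentile of the gaps was -0.309 for the shorter genes and -0.225 for the longer ones. Mitochondrial genes took 5.72% of the counts in this library, 6.29% and 6.14% in siTRIM28 replicates 2 and 3, and 4.95% to 5.29% in siNC. What set MT2A apart in siTRIM28 replicate 1 was not tested.

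**Figure D2:**
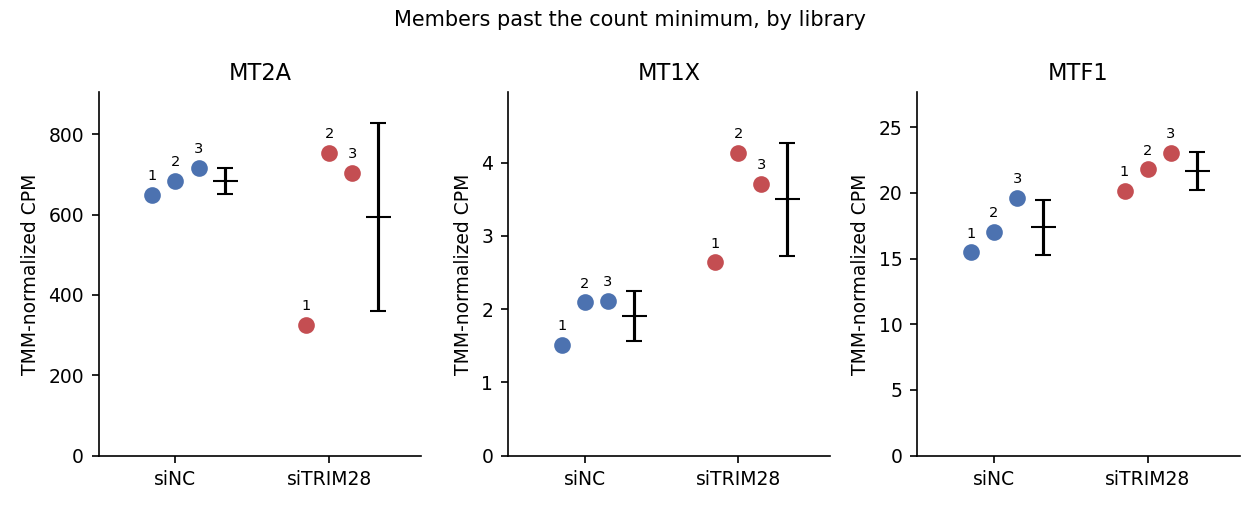
TMM-normalized CPM of MT2A, MT1X and MTF1 in each library (points, numbered by replicate, in blue for siNC and red for siTRIM28), with the mean and SD of each group in black and each axis starting at 0. MT2A at 325 CPM in siTRIM28 replicate 1 lies below the other 5 libraries, whereas all siTRIM28 libraries lie above the siNC libraries for MT1X and MTF1.

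MT1X (ENSG00000187193) is at the other end of the metallothionein cluster, at 56682470 to 56684196 of chromosome 16, on the plus strand, and like MT2A it encodes a metal-binding protein that zinc can induce. It had 21, 29 and 27 counts in siNC replicates 1, 2 and 3 and 37, 49 and 44 counts in siTRIM28 replicates 1, 2 and 3. In CPM this was 1.51, 2.09 and 2.12 in siNC and 2.64, 4.14 and 3.72 in siTRIM28. The groups did not overlap, which held for 52.0% of all genes tested. The means were 1.91 ± 0.343 and 3.50 ± 0.771 CPM (SD, 3 libraries each), a log2 fold change of 0.86 with a standard error of 0.229 and a 95% interval of 0.36 to 1.36 (adjusted p = 0.01 by edgeR, exact permutation p = 0.1). Without siNC replicate 1, the lowest library, it was 0.71 with an adjusted p of 0.0523 by edgeR. With the close pairs of libraries summed into 1 sample each it was 0.78 with an adjusted p of 0.0540 by edgeR. Without both libraries that stood apart it was 1.12 (adjusted p = 0.00101 by edgeR). At under 50 counts a library the counting error is large.

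A second gene shares the start and strand of MT1X. ENSG00000259827, at 56682470 to 56687807 with no symbol in the table, shares 321 of its 551 exonic bases with MT1X in GENCODE v29, which is 58.3%. The main MT1X transcript of 450 bases has 165 bases in the shared part and 285 outside it. ENSG00000259827 had 16, 19 and 25 counts in siNC and 28, 39 and 37 counts in siTRIM28, a log2 fold change of 0.90 with a standard error of 0.270 (adjusted p = 0.0190 by edgeR). Its call was lost without siNC replicate 1 (0.73, adjusted p = 0.0855 by edgeR), without siNC replicate 2 (0.84, adjusted p = 0.0655), without siTRIM28 replicate 2 (0.75, adjusted p = 0.0724) and without siTRIM28 replicate 3 (0.80, adjusted p = 0.0694). How reads on shared exons were counted is not given in the sources used here, so the rises of these genes may not be separate measurements and the level of MT1X is uncertain.

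The remaining members had next to no counts. MT1F (56657731 to 56660698) and MT1M (56632659 to 56633981), both on the plus strand of chromosome 16, had 0 counts in all 6 libraries. MT1E (56625475 to 56627112, plus strand) and MT1G (56666730 to 56668021, minus strand) had 1 count each, both in siNC replicate 3. None of these 4 passed the filter on low counts, so 3 of the 7 members were tested and 2 were called, both as higher. Over all genes tested 41.8% were called, 21.3% as higher, so with so few members this number is no result about them. The 0 counts of MT1F allow up to 0.0396 RPKM in siNC and 0.0431 RPKM in siTRIM28, taking 3 counts over a group as the limit. On this scale, with totals as deposited, MT2A was at least 18670-fold higher than MT1F in siNC and at least 14739-fold higher in siTRIM28. For MT1M the bounds were at least 5151-fold and at least 4067-fold. These limits cover counting error only and rest on the table's lengths of 1852 bases for MT1F, 511 for MT1M and 914 for MT2A. The main transcripts in GENCODE v29 have 690, 829 and 786 bases. With those the bounds for MT1F would be lower and those for MT1M higher.

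By RPKM the order in siNC was MT2A at 748 ± 36.6, MTF1 at 2.17 ± 0.260 and MT1X at 1.10 ± 0.199, and in siTRIM28 it was MT2A at 650 ± 257, MTF1 at 2.71 ± 0.183 and MT1X at 2.03 ± 0.447 (mean ± SD, n = 3 each). The libraries of neighbours in this order did not overlap in either group. The table's lengths of MT1X, 1727 bases, and MT2A, 914 bases, are their whole spans, so that RPKM counts introns in. The main transcripts in GENCODE v29 have 450 bases for MT1X, 786 for MT2A and 7972 for MTF1. By those lengths MT1X would stand above MTF1 in both groups, so the order of these genes depends on the length used. By the table's lengths MT2A exceeded MT1X by a factor of 812, 617 and 640 in the siNC libraries and 233, 344 and 358 in the siTRIM28 libraries. With the main transcript lengths all these factors would be smaller. The factor was thus lower in every siTRIM28 library, also in replicates 2 and 3 where MT2A was not low.

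As a share of the summed RPKM of the 6 metallothioneins, MT1X was 0.123%, 0.162% and 0.156% in siNC and 0.428%, 0.289% and 0.279% in siTRIM28. In counts, the exact 95% binomial intervals of the MT1X share were 0.144% to 0.355%, 0.205% to 0.438% and 0.194% to 0.428% in siNC and 0.568% to 1.11%, 0.404% to 0.721% and 0.382% to 0.704% in siTRIM28. MT2A made up the rest but for the single counts of MT1E and MT1G, with 99.845% ± 0.0286 in siNC and 99.668% ± 0.0833 in siTRIM28 (SD, n = 3 each). This difference of -0.178 percentage points gave an exact two-sided permutation p of 0.1, and it was -0.130 without siTRIM28 replicate 1. The summed RPKM of the family was 712, 750 and 786 in siNC and 358, 828 and 772 in siTRIM28, and so followed MT2A.

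The rest of the family was equally quiet. The table held 17 more metallothionein rows, with 15 symbols, and 10 of these rows were at 0 in all libraries. None reached the count minimum. The most counts were on MT2P1, a processed copy of MT2A, with 6, 5 and 6 in siNC and 7, 5 and 5 in siTRIM28, and these values overlapped. In the GENCODE v29 transcripts, 4.88% of the windows of 50 bases in MT2A also occurred in another gene, against 15.96% for MT1X and 20.2% for MT1G with overlapping genes left aside. With windows of 100 bases, and overlapping genes again left aside, the share was 0 for all 6 metallothioneins. With the overlapping gene counted, 19.1% of these longer windows of MT1X were shared. The read length and the treatment of reads that map to several places are not given in the sources used here, so counts on near-identical copies are uncertain.

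**Figure D3:**
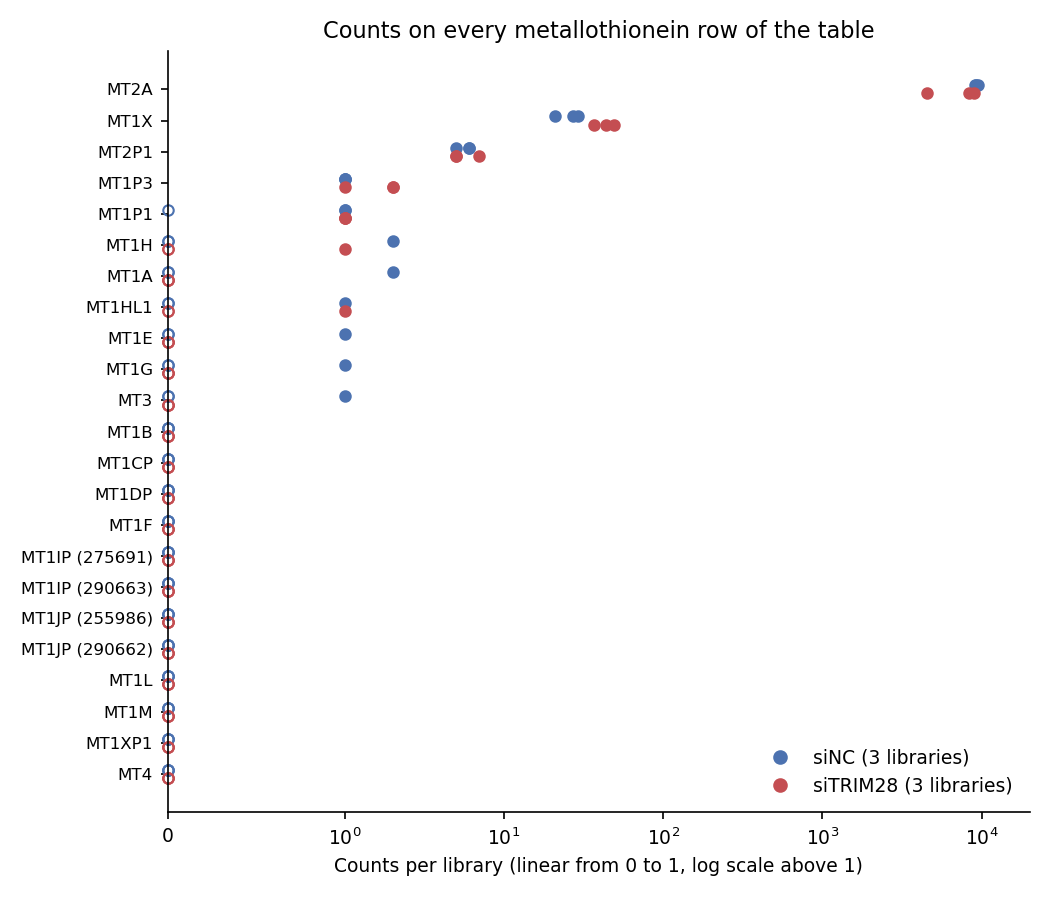
Counts per library (points, blue for siNC and red for siTRIM28, open at 0) on each of the 23 metallothionein rows of the table, on an axis that is linear from 0 to 1 and logarithmic above. MT2A lies at 4556 to 9471 counts, MT1X at 21 to 49 and every other row at 7 or fewer.

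The 18 metallothionein rows of the chromosome 16 cluster span 56565073 to 56684196. The tested genes with a symbol nearest to it on the lower side were OGFOD1, a prolyl hydroxylase of the ribosome, and NUDT21, a factor of 3′ end processing. Their log2 fold changes were -0.23 (adjusted p = 0.0926) and -0.11 (adjusted p = 0.0718, both by edgeR), so that neither was called. OGFOD1 was called as lower without siTRIM28 replicate 1, at -0.39 (adjusted p = 5.60e-05 by edgeR). On the upper side were NUP93-DT, a divergent transcript, NUP93, a nuclear pore protein, and the pseudogene RPS24P17. NUP93-DT, 9666 bases from the cluster, was higher by 1.04 (adjusted p = 0.0176), and NUP93 was lower by -0.26 (adjusted p = 0.00420, both by edgeR). Without siNC replicate 1 NUP93-DT was at 0.73 with an adjusted p of 0.0707 by edgeR. RPS24P17 was not called, at 0.14 (adjusted p = 0.772 by edgeR). NUP93-DT and NUP93 thus moved in opposite directions.

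Zinc and copper handling genes, other targets of MTF1 and genes of the glucocorticoid response were read from lists of names. Of the 47 genes on the 5 lists together, 38 were tested, of which 6 were higher and 10 lower in siTRIM28 and 22 did not pass the threshold. This is 16 of 38 called, close to the 41.8% over all genes tested, so that the number is no result about the lists. The median log2 fold change was -0.12, against 0.015 over all genes tested.

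Of 10 zinc exporters of the SLC30A family 6 were tested, none was higher and 1 was lower, with a median of -0.15. SLC30A5, which loads zinc into the secretory pathway, fell from 13.3 ± 0.938 to 10.3 ± 0.811 CPM (mean ± SD, 3 libraries each), or -0.36 on the log2 scale (adjusted p = 0.00845 by edgeR). SLC30A1, the exporter of the plasma membrane and a known target of MTF1, had 4.76 ± 0.571 and 4.18 ± 0.197 CPM and was not called (-0.18, adjusted p = 0.379 by edgeR).

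Of 14 zinc importers of the SLC39A family 11 were tested, of which 1 was higher and 2 were lower, with a median of -0.15. SLC39A10, an importer of the plasma membrane that MTF1 is known to repress, was lower in every siTRIM28 library, at 62.4 ± 1.99 CPM in siNC and 39.6 ± 0.996 CPM in siTRIM28 (-0.66, adjusted p = 3.55e-06 by edgeR). SLC39A6, its close relative, was lower by a smaller amount (-0.24, adjusted p = 0.00877 by edgeR). SLC39A1, a widely expressed importer, rose from 59.0 ± 1.96 to 74.9 ± 8.10 CPM (0.35, adjusted p = 0.00271 by edgeR). Importers thus changed in both directions.

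The 4 other targets of MTF1 on the list, SLC30A1, SLC39A10, GCLC and PGF, were all tested, with 1 higher and 1 lower and a median of -0.09. The higher one was PGF, a growth factor of the VEGF family, with 5, 8 and 3 counts in siNC and 18, 10 and 16 counts in siTRIM28, a log2 fold change of 1.54 (adjusted p = 0.00635 by edgeR). PGF reached the count minimum through the siTRIM28 libraries alone, so it could be tested only because it was high there, and it was not tested when any of these 3 libraries was left out. GCLC, the catalytic subunit of the first enzyme of glutathione synthesis, had 14.1 ± 0.672 and 14.1 ± 0.591 CPM and a log2 fold change of 0.00 (adjusted p = 0.992 by edgeR).

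All 11 copper handling genes were tested, of which 2 were higher and 5 lower, with a median of -0.28. SLC31A1, the copper importer of the plasma membrane, rose from 20.4 ± 1.54 to 30.2 ± 0.947 CPM (0.57, adjusted p = 7.05e-05 by edgeR). SLC31A2, its relative in endosomes and lysosomes, was higher by 0.70 (adjusted p = 0.0209 by edgeR). COMMD1, which takes part in copper export, fell from 17.2 ± 1.92 to 10.1 ± 0.745 CPM (-0.76, adjusted p = 8.25e-05 by edgeR). ATP7B, a copper-exporting ATPase, was lower by -0.54 (adjusted p = 0.00591), and SCO1, which delivers copper to cytochrome c oxidase, by -0.40 (adjusted p = 0.00189, both by edgeR).

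The SLC31A2 call, at 1.33 ± 0.173 and 2.18 ± 0.0308 CPM, was lost when any 1 of 4 libraries was left out. Without siNC replicate 1 or 3 it was 0.67 (adjusted p = 0.0640) or 0.62 (adjusted p = 0.0688), and without siTRIM28 replicate 2 or 3 it was 0.69 in both cases (adjusted p = 0.0511 and 0.0520, all by edgeR). It was also lost without both libraries that stood apart (0.64, adjusted p = 0.0755), with close pairs summed (0.69, adjusted p = 0.0731), with no filter on low counts (0.69, adjusted p = 0.0585, all by edgeR) and by DESeq2 (0.70, adjusted p = 0.131).

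Of 10 genes of the glucocorticoid response 8 were tested, of which 2 were higher and 2 lower, with a median of 0.11. FKBP5, a chaperone of the receptor that is itself induced by glucocorticoids, fell from 55.7 ± 2.37 to 25.7 ± 0.888 CPM (-1.11, adjusted p = 1.24e-07 by edgeR). NR3C1, the glucocorticoid receptor, was lower by -0.32 (adjusted p = 0.000753 by edgeR). TSC22D3 and DUSP1, both inducible by glucocorticoids, were higher by 0.52 (adjusted p = 0.0194) and 0.50 (adjusted p = 0.00721, both by edgeR). DUSP1 had 67.4, 71.1 and 57.0 CPM in siNC and 114, 79.6 and 81.9 CPM in siTRIM28, so that siTRIM28 replicate 1 was its highest library. Without that library its log2 fold change was 0.31 (adjusted p = 0.00129), and without both libraries that stood apart it was 0.22 (adjusted p = 0.000926, both by edgeR). The TSC22D3 call was lost without siNC replicate 1 (0.51, adjusted p = 0.0636), siNC replicate 3 (0.46, adjusted p = 0.0653), siTRIM28 replicate 2 (0.42, adjusted p = 0.0853) or siTRIM28 replicate 3 (0.47, adjusted p = 0.0738, all by edgeR).

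**Figure D4:**
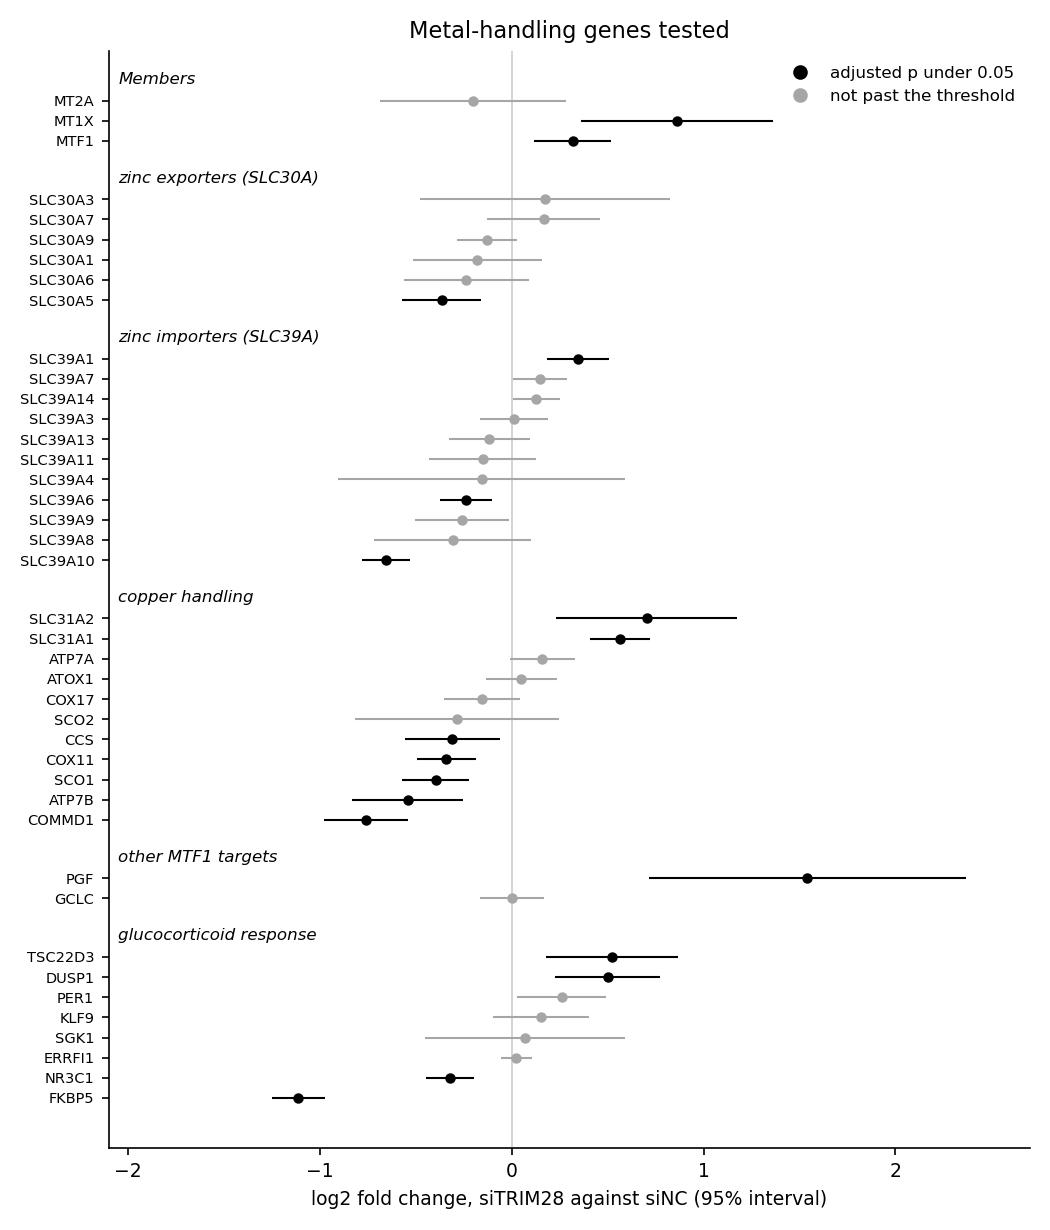
Log2 fold change of siTRIM28 against siNC (points) with its 95% interval (bars) for the 3 members tested and the 38 genes of the 5 lists, in black where the adjusted p is under 0.05, with SLC30A1 and SLC39A10 drawn once, among the transporters. Black points lie on both sides of 0, the interval of MT2A spans 0, and the rightmost point, PGF, passed the count minimum only through the siTRIM28 libraries.

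Genes whose pattern over the 6 libraries was most like that of MT2A were NDUFA6, MOCS2, CCNQ, FAXDC2 and SKIC3, with Pearson's r of log2 CPM from 0.987 to 0.994 among 11338 candidates. As in MT2A, siTRIM28 replicate 1 was their lowest library. NDUFA6, a subunit of respiratory complex I, had 114, 118 and 120 CPM in siNC and 89.1, 126 and 118 CPM in siTRIM28. For MTF1 they were DNPEP, KCTD13, EIF5A2, SEC16A and SCN8A, with r from 0.988 to 0.993. The points share library depth and group, so these values are a description only.

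**Figure D5:**
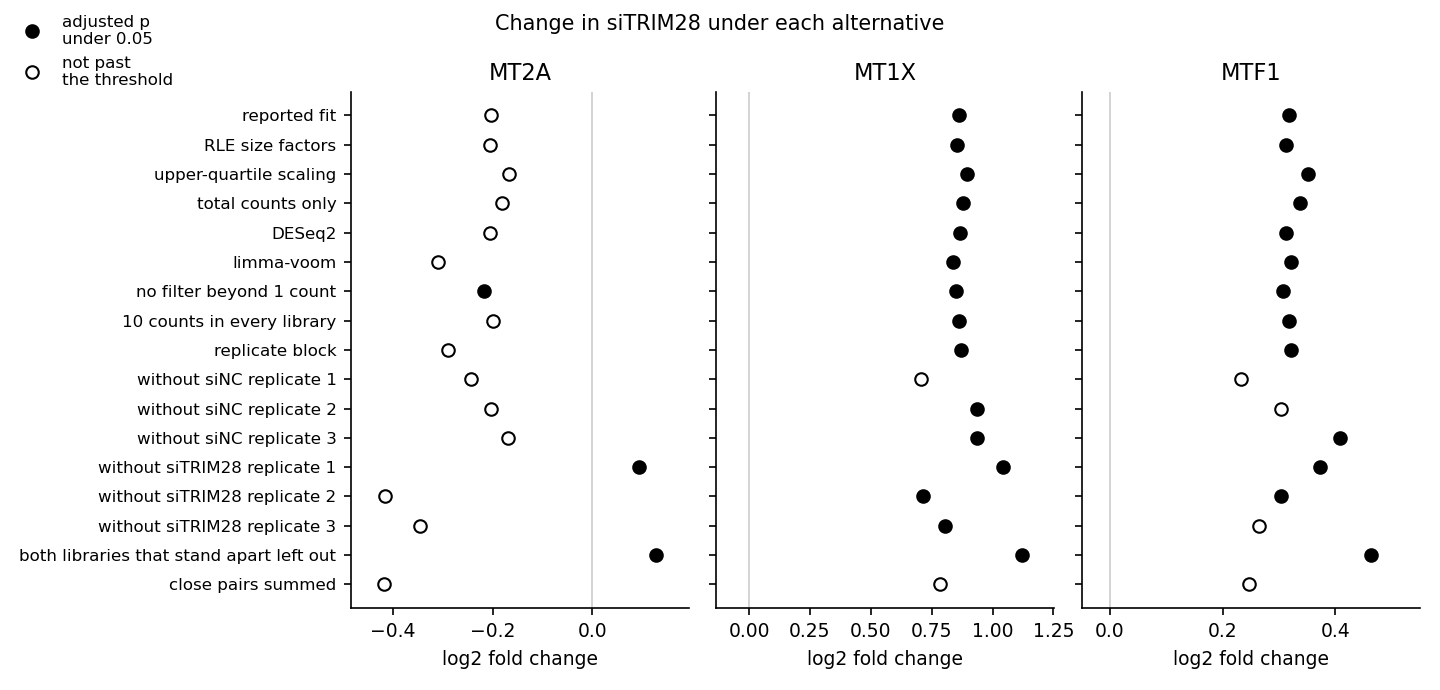
Log2 fold change of siTRIM28 against siNC for MT2A, MT1X and MTF1 in the reported fit and under each alternative, filled where the adjusted p is under 0.05. MT1X and MTF1 stay above 0 throughout, while MT2A lies between -0.42 and -0.17 except without siTRIM28 replicate 1, where it is 0.09, and without both libraries that stood apart, where it is 0.13.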

How the data were processed

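Poly(A) RNA of T24 cells was sequenced as 6 stranded libraries. The authors deposited unnormalized read counts for each of 78932 genes of GRCh38, with gene lengths. fastp 0.23.1, STAR 2.7.6a and featureCounts are named in the submitters' processing notes without their roles or settings. The annotation release, the use of strand, molecular identifiers and reads that map to several places are not given in the sources used here. A second deposited table, of RPKM values of the authors' differentially expressed genes, was not used. Groups and replicate numbers came from the labels.

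Counts were scaled by TMM and compared with the quasi-likelihood functions of edgeR 4.0.16 (R 4.3.3), with condition as the single covariate. A gene entered the test with 10 or more counts in 3 or more of the 6 libraries, which left 18474, and Benjamini-Hochberg adjusted p-values over all of them were called under 0.05. Standard errors follow from the log2 fold change and the root of its F statistic. RPKM here is TMM-normalized CPM per kilobase of the deposited gene length, and bounds against a gene at 0 use total counts. For single members log2 CPM (prior count 2) was permuted exactly, two-sided. Intervals of shares are exact binomial ones at 95%. Promoters came from RefSeq (GRCh38.p14), transcripts from GENCODE v29.

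The members, gene lists and alternatives were chosen with earlier results of these data known. Named are all members, TRIM28, other metallothioneins past the count minimum, in each list at most 3 called genes per direction by size of change, the 3 nearest tested genes on each side of the cluster, and the 5 genes most like MT2A and MTF1 (mean of at least 50 counts). One gene that this rule names is not reported here. SLC30A1, GCLC, MT2P1, the marker genes, ENSG00000259827 and other metallothioneins are named beside this rule, after their values were seen. Alternatives were scaling by RLE, by the upper quartile or by total counts, tests by DESeq2 1.42.0 and limma-voom (limma 3.58.1), other count filters, a stricter threshold, the replicate number as a block, libraries left out, and close pairs summed. On simulated data with a log2 change of 0.8, 131 of 137 changed genes with at least 50 counts were recovered (95.6%) and 18 of 63 with fewer (28.6%), among 18474 genes. 8 unchanged genes were called. The simulation gave every gene the same spread (a coefficient of variation of 0.073 beyond counting error) and had no library that stood apart. It also changed far fewer genes than were called in the real data. These rates therefore check the code and need not hold for the real libraries. Python 3.11.15 with pandas 2.3.3, scipy 1.17.1, numpy 2.4.6 and, for figures, matplotlib 3.10.9 was used for the rest.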

Additional observations from a re-analysis of the deposited data

How the results depend on the processing

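The number of members called, 2 as reported, was 0 to 3 when 1 library was left out. It was 0 without siNC replicate 1, 1 without siNC replicate 2 or siTRIM28 replicate 3, 0 with close pairs summed and 0 at an adjusted p under 0.01. MT1X and MTF1 kept their direction under every alternative run. MT2A ranged from -0.42 to 0.094 when 1 library was left out, with the positive value without siTRIM28 replicate 1, and was 0.13 without both libraries that stood apart. NDUFA6, MOCS2, CCNQ, FAXDC2 and SKIC3 had been picked for their likeness to MT2A over the same 6 libraries. Similar shifts in them were therefore largely fixed by that choice. NDUFA6 ranged from -0.19 to 0.056 (0.072 without both) and MOCS2 from -0.16 to 0.019 (0.018). FAXDC2 ranged from -0.21 to 0.081 (0.078) and SKIC3 from -0.094 to 0.032 (0.048). CCNQ stayed negative, from -0.21 to -0.00091 (-0.0033). RPS24P17, a neighbour of the cluster, ranged from -0.11, without siNC replicate 2, to 0.48. The cause of these shifts was not tested. Between 12 and 18 pathway genes were called over the alternatives, 16 as reported. The number of changed genes over the whole table was 7723, with 5878 by DESeq2 and 5393 at an adjusted p under 0.01. Under upper-quartile scaling 56.6% of the calls were higher, against 51.1%. The labels give replicate numbers but state no pairing. Deviations of same-numbered libraries from their group means correlated at 0.052, -0.012 and 0.037. With 1 library standing apart in each group, these values cannot settle whether the samples were paired. With the replicate block 7910 genes and 2 members were called, and MT2A was at -0.29 (adjusted p = 0.133 by edgeR). Few counts limit MT1X and the members at 0.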
